A study of Mus musculus with 20 samples.

Results

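Immediate early genes and heat shock genes were followed through 20 mouse mammary tumours. They comprised 41 genes, 26 immediate early genes and 15 genes of the heat shock response, taken by name from the deposited table. Each gene was represented by its transcript with the highest total over the 20 libraries and was kept when that transcript reached a value of 10 in at least 5 libraries. All 41 passed, among 19876 genes of 38996 named ones that passed the same filter. The lowest members were Hspa1a and Dusp2, each at 10 or more in 16 libraries with means of 22.7 and 23.8, and no listed gene fell outside the rule.

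The tumours grew from SSM3 cells, an oestrogen receptor-positive line derived from a mouse mammary tumour, placed by injection in an inguinal mammary gland, the fourth, of host mice of strain 129S6/SvEv that were 2 to 4 months old. Treatment began at about 150 mm3. The vehicle group (5 tumours) had a sham operation and 25 daily injections of 5% ethanol in saline. The anti-PD-1 group (5 tumours) had the sham operation, the same vehicle and 250 µg of an antibody against the T cell checkpoint receptor PD-1 on days 3, 5 and 7 after surgery. The letrozole group (5 tumours) was ovariectomised and received 1 mg/kg letrozole, an aromatase inhibitor that blocks oestrogen synthesis, each day. The letrozole + anti-PD-1 group (5 tumours) had ovariectomy, letrozole and the antibody. Every letrozole tumour therefore also came from an ovariectomised host, and ovary removal and the drug cannot be told apart. All tumours came from 1 cell line. The sources used here give no interval between the last injection and the removal of the tumour.

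Immediate early genes are switched on within minutes by growth factors, hormones or stress, before any new protein is made. Serum response factor at CArG boxes and CREB at cyclic AMP response elements drive many of them, and their products include the AP-1 subunits of the Fos and Jun families, the Egr, Nr4a and Klf transcription factors, and feedback genes such as the Dusp phosphatases, which switch MAP kinases off. Heat shock genes answer to Hsf1, a factor that binds heat shock elements when unfolded protein accumulates, and they encode chaperones of the Hsp70, Hsp90, Hsp60 and small heat shock families. In mammary cancer cells oestrogen induces FOS and EGR3, and HSP90 holds the oestrogen receptor in its hormone-binding form.

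The libraries held from 12497282 to 31387527 reads on the transcripts used, and values are given as normalised counts, which are reads divided by a size factor of the library. Pgr, a target of the oestrogen receptor, served as a check of hormone deprivation and fell from 15626 ± 2694 in vehicle and 13533 ± 4150.4 in anti-PD-1 tumours to 1370.0 ± 361 in letrozole and 1235 ± 346 in letrozole + anti-PD-1 tumours (SD, n = 5 each). The difference averaged over both antibody arms was 11.2-fold (limma, adjusted p = 4.17e-11). The luminal markers that define the tumour cells were present in every library, with a summed level of 251677 to 344917. The tumours differed in their other tissue, and in bulk RNA fewer cells of a type and less RNA per cell cannot be told apart. The summed level of 13 fibroblast markers ran from 3810.1 to 77914 in vehicle, 7619 to 49517 in anti-PD-1, 11432 to 86701 in letrozole and 14799.6 to 52564 in letrozole + anti-PD-1 tumours. That of 12 skeletal muscle markers, 10 of which passed the filter, ran from 54.0 to 106, from 45.0 to 279.6, from 57.7 to 2165 and from 35.7 to 2778 in the same order, with Myh2 and Pvalb at 0 in all vehicle tumours. The 4 highest sums, at 1172 or more against at most 279.6 in the others, were in letrozole 1, 4 and 5 and letrozole + anti-PD-1 2. Vehicle tumour 3 and anti-PD-1 tumour 1 stood apart from the other tumours of their groups. Vehicle 3 had the highest fibroblast (77914) and macrophage (15859) sums of its group, and anti-PD-1 1 had the shallowest library and the fewest detected genes, 21001 against 23984 or more in the others. The 10 highest genes held 12.9% of the reads of anti-PD-1 1, against 5.14% to 7.75% in the other libraries.

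Per kilobase of transcript, the levels of the members spanned more than 3 orders of magnitude. Hsp90ab1, the constitutive cytosolic Hsp90, stood highest with a mean of 26047 normalised counts per kilobase over the 20 tumours. Jund, an AP-1 subunit that is expressed without a stimulus, followed at 8153, Hspa8, the constitutive Hsp70, at 6919, Hspd1, the mitochondrial Hsp60, at 3522, and Hsp90aa1, the stress-inducible Hsp90, at 3263. Fos stood at 1707 and Egr1 at 511 per kilobase. The stress-inducible Hsp70 genes were low, Hspa1b at 65.6 and Hspa1a at 7.65 per kilobase, and so were Hspb1 at 46.1, Egr3 at 27.7 and Fosb at 26.8. On this scale Hspa8 was the highest of the cytosolic Hsp70 genes among the members.

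Sequence shared between genes limits some of these levels. Hspa1a and Hspa1b are near-identical neighbours, and 58.8% of the 50-base words of the Hspa1a transcript also occur in Hspa1b. Words shared with any other gene made up 60.4% of Hspb1, 58.5% of Hsp90aa1, 52.7% of Hspa8, 44.8% each of Hspd1 and Hspe1, and 28.8% of Dnaja1. Of the genes that share most, Gm15459, which resembles Hspa8, had a mean of 4597 normalised counts, while those for Hspb1, Hsp90aa1, Hspd1, Hspe1 and Dnaja1 had means of 0.637 to 85.0. Fosl1 shares 57.2% of its exon bases with Ccdc85b on the other strand and Jund 52.6% with Gm11175. The sources used here do not say whether counting used strand, so the levels of Fosl1 and Jund are uncertain, as is that of Dusp5, which shares 22.1%. Dusp1 and Hspa8 were represented by transcripts that retain an intron, and the Hsf1 transcript used held 9.8% of the summed values of the gene's transcripts. That sum and the transcript used stood at 13005 and 1278 in vehicle 1 and at 6724 and 647 in anti-PD-1 5. The counting tool is not named, and a read may have been counted in more than 1 transcript. The 9.8% need not mean a minor isoform.

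**Figure D1:**
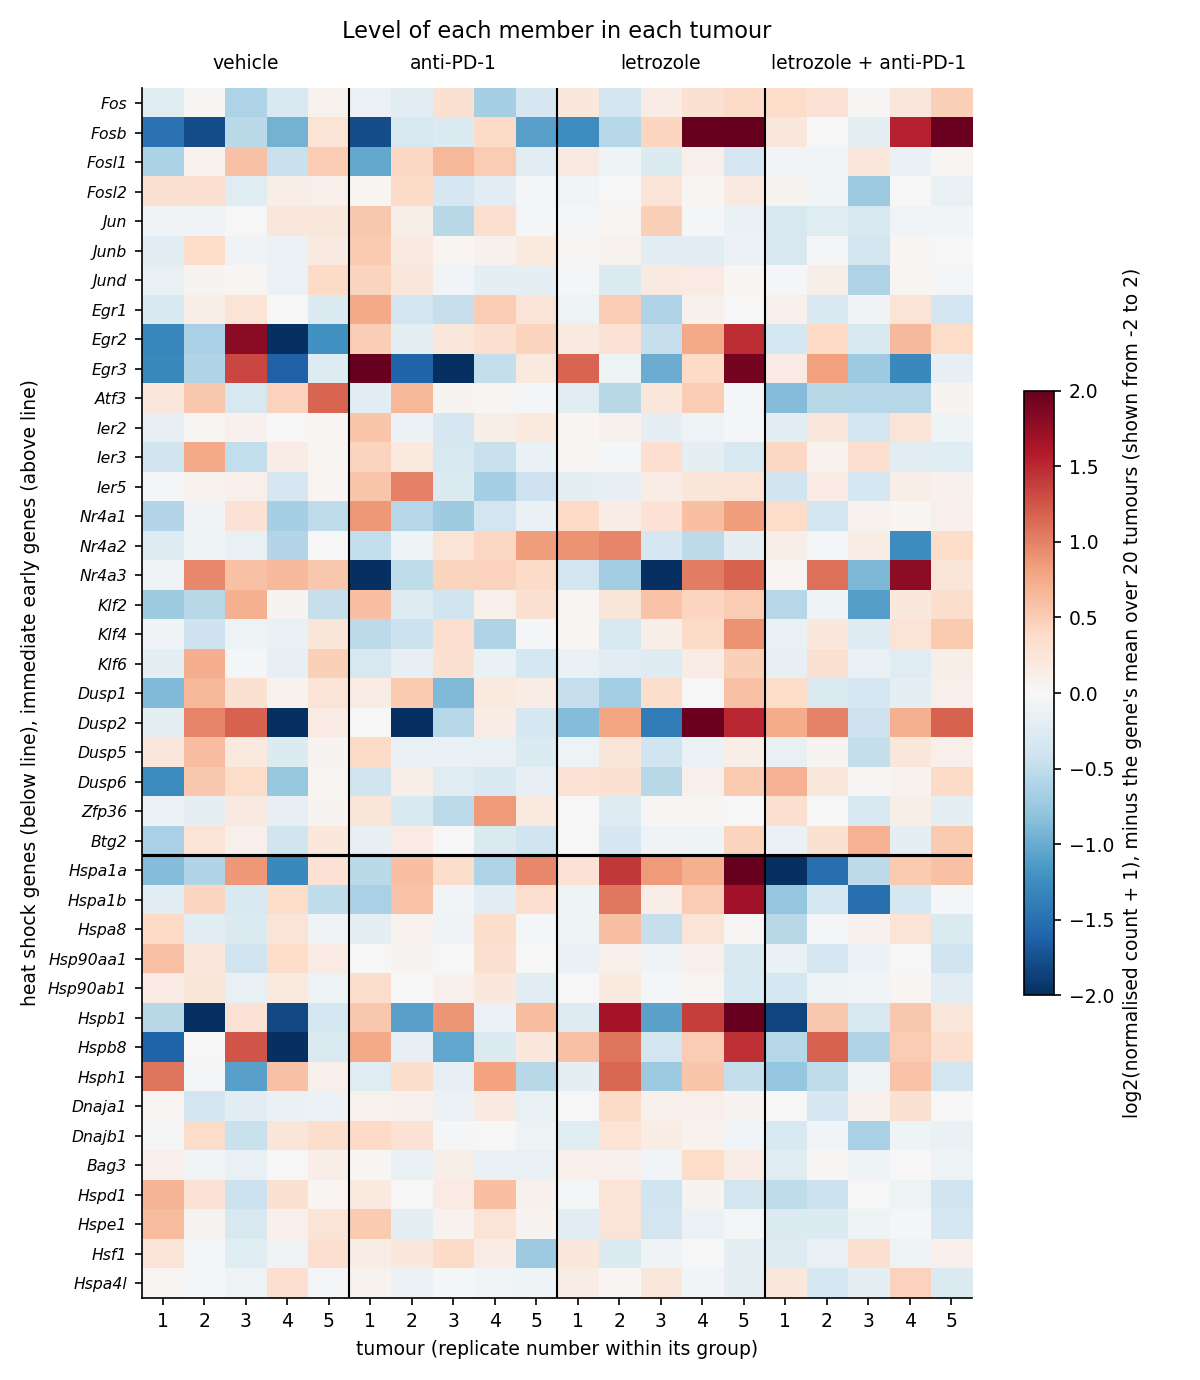
Level of each of the 41 members (rows) in each of the 20 tumours (columns, numbered within their group), as log2(normalised count + 1) minus the mean of the gene over all tumours, on a scale cut at -2 and 2. Colours vary within the groups as well as between them. The strong colours sit in single tumours and in genes of low level, such as Egr3 in anti-PD-1 1 and Hspb1 in letrozole 5.

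The first question was whether oestrogen deprivation, averaged over the arms with and without antibody, moved these genes. Of the 41 members 1, Fos, was called (limma, adjusted p under 0.05 over all genes tested), which is 2.44% of the members against 7.00% of all genes tested. Fos was higher with letrozole, as were 3.28% of all genes by the same test, while 3.72% were lower. At an unadjusted p under 0.05 stood 10 members, 5 higher and 5 lower, or 24.4% against 22.9% of all genes. Both shares were near or under those of all genes. The median log2 difference was 0.01 for the immediate early set, with 13 members fitted higher and 13 lower, and -0.04 for the heat shock set, with 7 higher and 8 lower, beside 0.03 for all genes tested.

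Fos encodes the AP-1 subunit that dimerises with Jun proteins. It stood at 2976, 3584, 2298, 2820.4 and 3689 normalised counts in the 5 vehicle tumours and at 3245, 3019, 4338, 2207 and 2784 in the anti-PD-1 tumours. It stood at 4068, 2734, 3875, 4347 and 4580.4 in the letrozole tumours and at 4526, 4294, 3558, 4119 and 4896 in the letrozole + anti-PD-1 tumours. Of the 10 tumours with letrozole 8 lay above the median of all 20, against 2 of the 10 without, the exceptions being letrozole 2 and letrozole + anti-PD-1 3 below it and vehicle 5 and anti-PD-1 3 above it. The means were 3073 ± 573 in vehicle, 3118 ± 783 in anti-PD-1, 3921 ± 716 in letrozole and 4278 ± 497 in letrozole + anti-PD-1 tumours (SD, n = 5 each). The averaged difference was 0.42 on the log2 scale (SE 0.118, 95% interval 0.17 to 0.66), or 1.335-fold higher, with an adjusted p of 0.0370 (limma). The difference was 0.35 without the antibody (adjusted p = 0.357) and 0.48 with it (adjusted p = 0.185), so neither pairwise comparison passed, and the groups overlapped in both. The call lay close to the threshold. It was lost without any 1 of 12 of the 20 tumours (vehicle 1 and 4, anti-PD-1 2, 4 and 5, letrozole 1, 3, 4 and 5, letrozole + anti-PD-1 1, 2 and 5), with adjusted p from 0.0125 to 0.0740 over the 20 such fits, and the difference stayed between 0.36 and 0.48. Without the 4 tumours of high skeletal muscle markers it was 0.29 (limma, adjusted p = 0.393). All 4 had letrozole, so that fit held fewer letrozole tumours and cannot part the tissue from this loss. The part of this tissue in the difference was not tested.

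**Figure D2:**
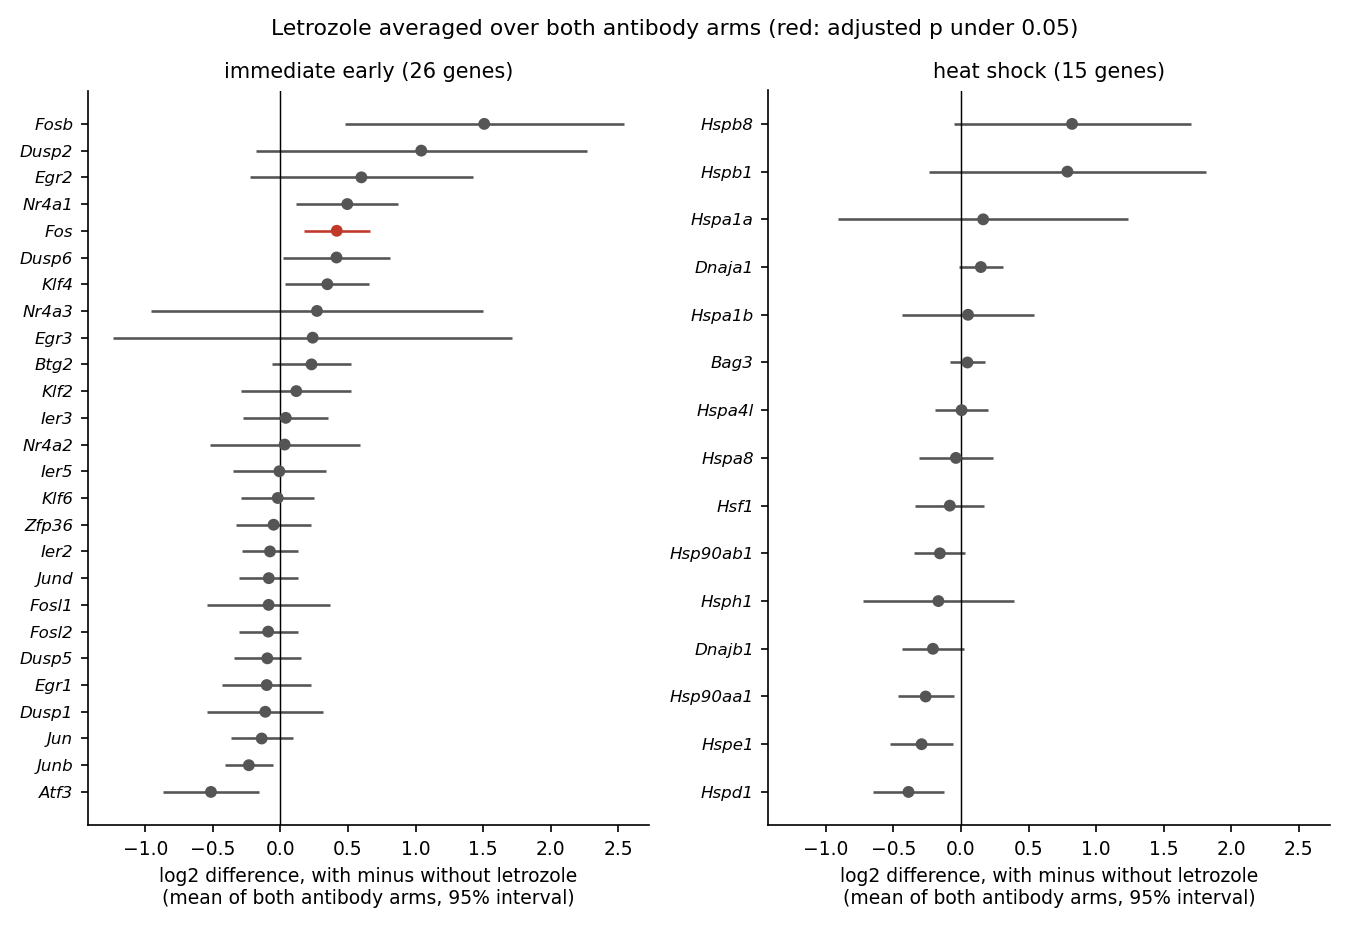
The log2 difference of each member between tumours with and without letrozole (x axis), averaged over both antibody arms, with 95% intervals from limma, for the immediate early set (left) and the heat shock set (right). Fos, at 0.42, is in red as the member with an adjusted p under 0.05, and 10 of the 41 intervals leave out 0.

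The other Fos and Jun proteins and Atf3 complete the AP-1 family. Fosb, induced together with Fos after many stimuli, stood at 21.1, 17.0, 41.2, 30.9 and 73.3 in vehicle and 16.9, 48.1, 49.7, 78.9 and 28.0 in anti-PD-1 tumours. It stood at 24.9, 40.6, 81.4, 616 and 256 in letrozole and 70.7, 60.1, 52.6, 178 and 242 in letrozole + anti-PD-1 tumours. The high values were in letrozole 4 and 5 and letrozole + anti-PD-1 4 and 5, and the groups overlapped. Its averaged difference with letrozole was 1.51 (SE 0.495), 2.845-fold, with an adjusted p of 0.0701. EdgeR and DESeq2 on the recovered reads both called it, with adjusted p of 0.0263 and 7.12e-04. The skeletal muscle sums were 1452 and 1172 in letrozole 4 and 5, and 35.7 and 84.9 in letrozole + anti-PD-1 4 and 5. Letrozole 1 and letrozole + anti-PD-1 2, with sums of 2165 and 2778, had Fosb at 24.9 and 60.1. The part of this tissue in the Fosb values was not tested.

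Junb, which opposes Jun at some promoters, stood at 6718, 5290.0, 4826, 4993 and 5352 in anti-PD-1 tumours and at 3736, 4567, 3618, 4799.9 and 4697 in letrozole + anti-PD-1 tumours. The latter values all lay below the former. It stood at 4042, 6029, 4459, 4301 and 5318 in vehicle and 4754, 4934, 3988, 4020.5 and 4303 in letrozole tumours, which overlapped. Its difference in the antibody arm was -0.34 (SE 0.120, adjusted p = 0.193) and the averaged one -0.23 (SE 0.0851, adjusted p = 0.1015).

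Jun, the main partner of Fos, stood at 8444, 8382, 8730.1, 10288 and 10362 in vehicle and 12801, 9602, 5994, 10981 and 8648 in anti-PD-1 tumours. It stood at 8556, 9018, 12240.3, 8657 and 8057 in letrozole and 7044, 7427, 7080.3, 8518 and 8463 in letrozole + anti-PD-1 tumours. The 5 tumours of the last group lay below the median of all 20, but within the range of anti-PD-1 tumours. Its averaged difference was -0.14 (SE 0.110, adjusted p = 0.475). Fosl1, Fosl2 and Jund had averaged differences of -0.09 each.

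Atf3, a repressor of the same dimer family that many stresses induce, had a difference of the opposite sign to that of Fos. It stood at 869, 1071, 592, 1021 and 1665 in vehicle and 638, 1166, 770.4, 750.4 and 722 in anti-PD-1 tumours. It stood at 631, 503, 866, 1051 and 728 in letrozole and 407, 503, 499, 496 and 769.9 in letrozole + anti-PD-1 tumours. In the last group 4 of 5 tumours lay below every vehicle tumour, while the fifth, at 769.9, lay above vehicle 3. The difference of letrozole + anti-PD-1 from vehicle was -0.92 (SE 0.240, 95% interval -1.42 to -0.42), 1.89-fold, with an adjusted p of 0.0686, and the averaged difference with letrozole was -0.51 (adjusted p = 0.0718). DESeq2 called both (adjusted p = 0.00516 and 0.0230). Without vehicle tumour 3, the lowest of its group in Atf3, limma called both, at -1.10 (adjusted p = 0.0123) and -0.61 (adjusted p = 0.0171). Leaving out that value favours a small p. The difference of letrozole + anti-PD-1 from letrozole alone was -0.49 (SE 0.240).

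**Figure D3:**
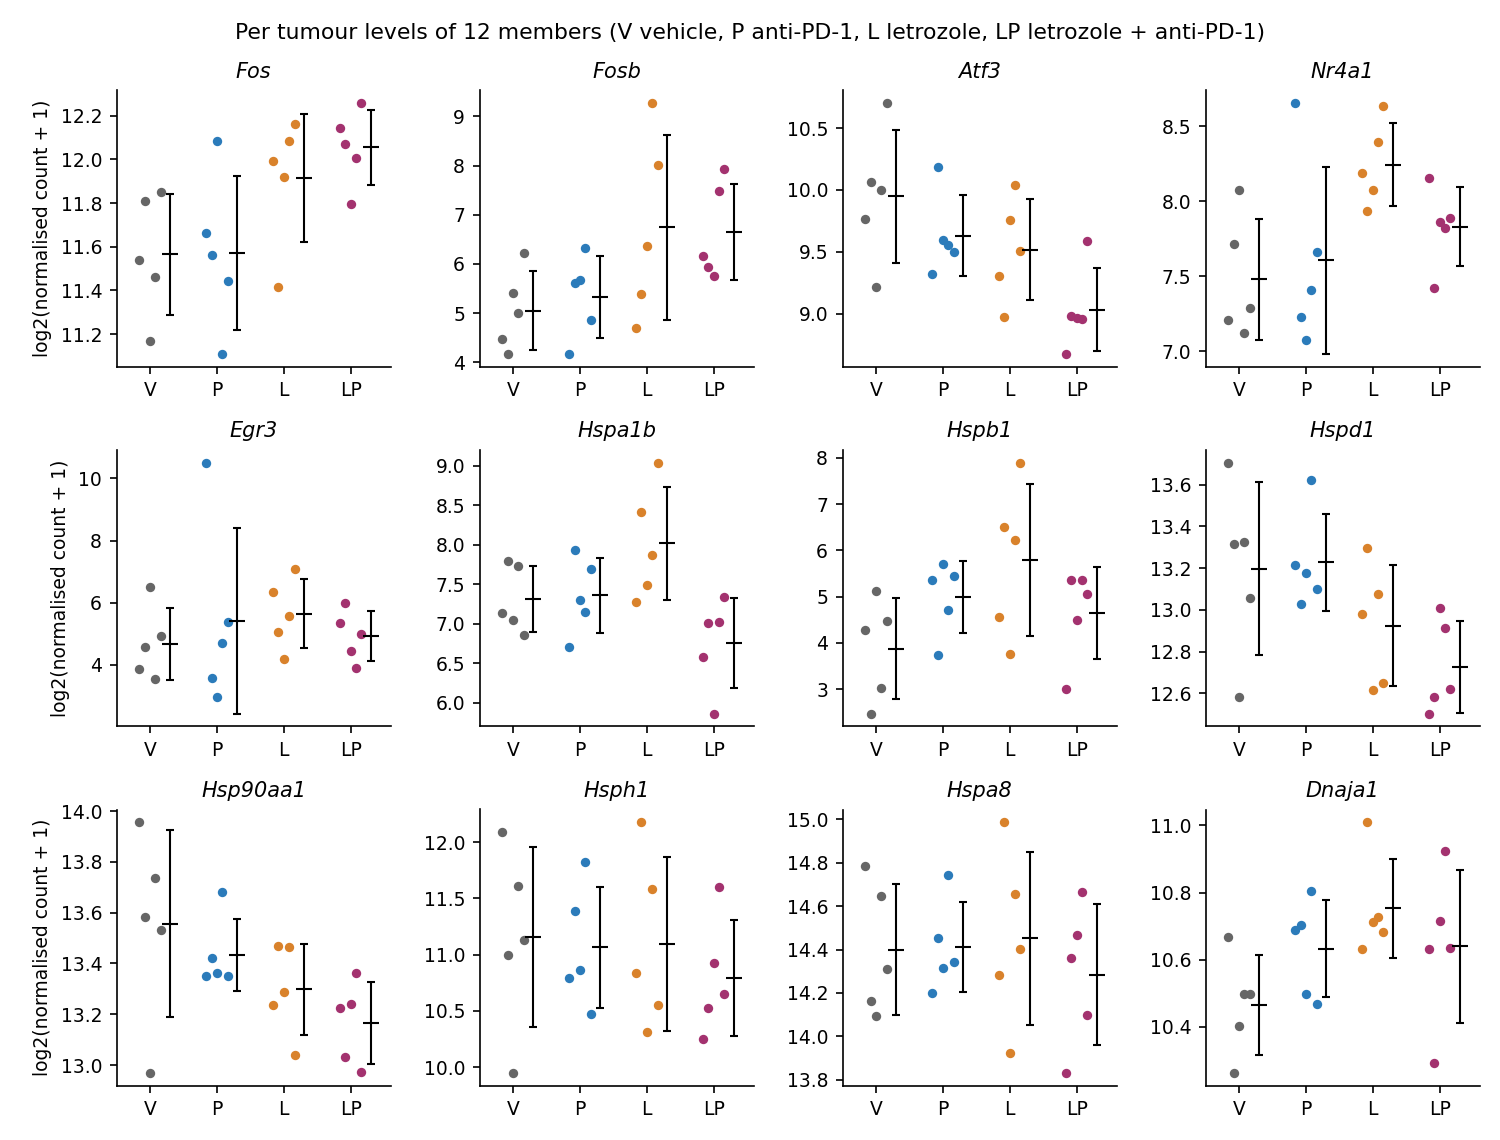
Levels of 12 members in each tumour as log2(normalised count + 1), 1 panel per gene with its own axis. Points are tumours, and the bar beside each group is its mean ± SD over 5 tumours. Most letrozole tumours sit higher in Fos and lower in Hspd1, with overlap, while Egr3 has 1 tumour far above the rest.

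The Egr genes encode zinc finger factors. Egr1 stood at 1799.6, 2427, 2684, 2226 and 1844 in vehicle, 3757, 1706, 1607, 3168 and 2656 in anti-PD-1, 2080.2, 3149, 1450.4, 2368 and 2209 in letrozole and 2373, 1804, 2114, 2698 and 1696 in letrozole + anti-PD-1 tumours. The 4 ranges overlapped, and the averaged difference with letrozole was -0.10 (95% interval -0.43 to 0.23). Egr2 stood at 38.5, 61.3, 342, 11.9 and 40.99 in vehicle, 136, 85.3, 113, 120.3 and 131 in anti-PD-1, 109.7, 118, 69.9, 164 and 269 in letrozole and 75.3, 128, 78.1, 153 and 125 in letrozole + anti-PD-1 tumours. Vehicle 3 was the highest of all 20, and the other 4 vehicle tumours were lower than every tumour of the other groups. Letrozole differed from vehicle by 1.30 (SE 0.560, limma, adjusted p = 0.297), and without vehicle 3 by 1.97 (SE 0.405, limma, adjusted p = 0.0118). The second fit leaves out the vehicle value that went most against the difference, which favours a small p. The difference of anti-PD-1 from vehicle was 1.11 (95% interval -0.05 to 2.28). Egr3 reached 1453 in anti-PD-1 1 and lay between 6.90 and 136 in the other 19 tumours. The sum over the transcripts of Egr3 was 2910.1 in that tumour. This sum contains the value above and is not separate support for it. Nr4a1 and Egr1 were also at their highest in anti-PD-1 1, at 402 and 3757. So were Jun, Junb, Jund, Ier2, Dnajb1 and Hsp90ab1, while Fosb, Fosl1 and Nr4a3 were at their lowest in it.

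Nr4a1, an orphan nuclear receptor, stood at 147, 209, 269, 138 and 155 in vehicle and 402, 149, 134, 169 and 201 in anti-PD-1 tumours. It stood at 290.3, 244, 268, 336 and 396 in letrozole and 284, 170.3, 231, 226 and 236 in letrozole + anti-PD-1 tumours. All 5 letrozole tumours lay above the median of all 20, yet vehicle 3 lay within their range. Letrozole differed from vehicle by 0.77 (SE 0.255, 1.70-fold, limma, adjusted p = 0.169), and by 0.91 without both libraries that stand apart (limma, adjusted p = 0.0105). One of these is vehicle 3, the highest vehicle value, and leaving it out favours a small p. Nr4a2 and Nr4a3 had means over 20 tumours of 38.9 and 36.1, with averaged differences of 0.03 and 0.27.

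The Klf genes encode Krüppel-like factors. Klf2 stood at 293, 327, 784, 499.6 and 349 in vehicle, 729, 403, 363, 517 and 595 in anti-PD-1, 492, 565, 716, 649 and 684 in letrozole and 322, 450.1, 224, 556 and 610.5 in letrozole + anti-PD-1 tumours. The difference of letrozole + anti-PD-1 from letrozole was -0.60 (SE 0.277, adjusted p = 1), with overlap. Klf6 stood at 2796, 5306, 3119, 2870.4 and 4474 in vehicle and 2571, 2873, 3968, 2920.0 and 2509 in anti-PD-1 tumours, and at 2947, 2752, 2693, 3562 and 4478 in letrozole and 2878, 3971, 2925, 2727 and 3493 in letrozole + anti-PD-1 tumours. No group of Klf6 lay apart. Klf4 had an averaged difference with letrozole of 0.35 (SE 0.149, adjusted p = 0.170).

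Dusp6, the phosphatase that acts on ERK, stood at 382, 1340.0, 1186, 547 and 948 in vehicle and 697, 1014, 776, 748 and 820.3 in anti-PD-1 tumours. It stood at 1131, 1145, 627, 992 and 1327 in letrozole and 1487, 1081, 939.8, 968 and 1205 in letrozole + anti-PD-1 tumours. The averaged difference was 0.41 (SE 0.191, 95% interval 0.02 to 0.81), with an adjusted p of 0.1995. The remaining feedback and early response genes (Dusp1, Dusp2, Dusp5, Zfp36, Btg2, Ier2, Ier3 and Ier5) had averaged differences from -0.11 in Dusp1 to 1.04 in Dusp2, and none was called. Dusp2 was the lowest of them, with 0 in anti-PD-1 2 and 68.3 at most.

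Among the heat shock genes the stress-inducible pair came first. Hspa1b stood at 140.1, 221, 132, 212 and 115 in vehicle and 104, 243, 157, 142 and 207 in anti-PD-1 tumours. It stood at 154, 341, 179, 234 and 526 in letrozole and 95.1, 128, 57.2, 129 and 160.4 in letrozole + anti-PD-1 tumours. Letrozole 5 and letrozole 2 were the highest of all 20, and letrozole 1, at 153.55, lay below the highest letrozole + anti-PD-1 tumour. Hspa1a stood at 8.24, 10.2, 30.0, 5.95 and 19.7 in vehicle and 10.6, 24.8, 20.7, 10.02 and 32.1 in anti-PD-1 tumours. It stood at 19.7, 44.2, 29.7, 26.6 and 97.5 in letrozole and 0, 4.94, 10.8, 23.3 and 24.5 in letrozole + anti-PD-1 tumours. Both genes had their highest value in letrozole 5 and the next in letrozole 2.

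The difference of letrozole + anti-PD-1 from letrozole was -1.26 in Hspa1b (SE 0.333, 95% interval -1.95 to -0.56), 2.39-fold lower, and -2.16 in Hspa1a (SE 0.727). Neither passed the adjustment over all genes (adjusted p = 1 in both), and no gene of the 19876 did in that comparison. The interaction, the difference between the letrozole effects with and without antibody, was -1.30 in Hspa1b (SE 0.471, adjusted p = 0.9999). Averaged over both antibody arms the letrozole difference of Hspa1b was 0.05 and changed sign in 7 of the 35 alternative fits.

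Hspb1 and Hspb8 encode small heat shock proteins that hold unfolded clients. Hspb1 stood at 18.3, 4.54, 33.7, 7.14 and 21.3 in vehicle and 40.2, 12.4, 51.1, 25.1 and 42.4 in anti-PD-1 tumours. It stood at 22.7, 89.3, 12.5, 73.3 and 237 in letrozole and 6.96, 40.3, 21.7, 40.02 and 32.1 in letrozole + anti-PD-1 tumours. Letrozole 5 stood highest by far. The difference of letrozole from vehicle was 1.91 (SE 0.697, adjusted p = 0.2125), and DESeq2 called it (adjusted p = 0.0158). Letrozole 5 was also the tumour with the highest sums of fibroblast (86701) and of basal and myoepithelial markers (19597), and in letrozole 2 and 4, the next in Hspb1, the latter sum was 4147 and 5963 against at most 2836 in vehicle tumours. The part of these cells in the Hspb1 values was not tested. Hspb8 had a difference from vehicle of 1.37 (SE 0.595).

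The Hsp90 pair and Hspd1 were fitted lower with letrozole, and limma with all 20 tumours called none of them. Hsp90aa1 stood at 15901, 12280.1, 8012, 13667 and 11848 in vehicle and 10450.2, 10977, 10521, 13123 and 10436 in anti-PD-1 tumours. It stood at 9638, 11342, 9988, 11302 and 8415 in letrozole and 9581, 8384, 9685, 10538 and 8026 in letrozole + anti-PD-1 tumours. Vehicle 3 was the lowest of all 20, while the other 4 vehicle tumours lay above every letrozole + anti-PD-1 tumour. The difference of letrozole + anti-PD-1 from vehicle was -0.39 (SE 0.141, limma, adjusted p = 0.209), and without vehicle 3 it was -0.54 (SE 0.116, limma, adjusted p = 0.0161). Leaving out the vehicle value that went most against the difference favours a small p. Hsp90ab1 had an averaged difference of -0.16 (95% interval -0.35 to 0.03).

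Hspd1, the mitochondrial Hsp60, stood at 13359, 10191, 6136, 10247 and 8525 in vehicle and 9522, 8358, 9264, 12623 and 8768 in anti-PD-1 tumours. It stood at 8074, 10069, 6286, 8631 and 6416 in letrozole and 5805, 6133, 8249.7, 7706 and 6299.9 in letrozole + anti-PD-1 tumours. All 5 letrozole + anti-PD-1 tumours lay below all 5 anti-PD-1 tumours. The difference between those groups was -0.50 (SE 0.176, 1.42-fold lower, adjusted p = 0.1935), and the averaged difference was -0.39 (SE 0.125, adjusted p = 0.0645). DESeq2 called Hspd1 in the averaged comparison (adjusted p = 0.0192). Hspe1, its partner Hsp10, had an averaged difference of -0.29 (SE 0.112, adjusted p = 0.121). For both genes 8 of the 10 tumours without letrozole and 2 of the 10 with it lay above the median of all 20.

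Vehicle 3 went against this pattern in the chaperones, with 6136 in Hspd1, 8012 in Hsp90aa1 and 986 in Hsph1. Without it 7 of the 41 members were called for letrozole averaged over both arms, against 11.7% of all genes. Fos, Egr2 and Nr4a1 were higher, and Atf3, Hsp90aa1, Hspd1 and Hspe1 were lower. Vehicle 3 and letrozole 5, the tumours with the highest fibroblast sums, had Hsp90aa1 at 8012 and 8415. Letrozole + anti-PD-1 5 and 2, with fibroblast sums of 33499 and 52564, lay between them at 8026 and 8384. Letrozole 4, with a fibroblast sum of 45270, stood at 11302. Anti-PD-1 5 and letrozole 1, with sums of 49517 and 36314, stood at 10436 and 9638. The part of other tissue in these differences was not tested. The share of 17.1% (7 of 41) is above the 11.7% of all genes, but no test of the difference was made.

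Hspa8 stood at 28246, 18350.4, 17482, 25633 and 20293 in vehicle and 18837, 22409.7, 20374, 27438 and 20753 in anti-PD-1 tumours. It stood at 19962, 32475, 15547, 25828 and 21646 in letrozole and 14571, 21039, 22652, 25953 and 17518 in letrozole + anti-PD-1 tumours. The ranges of the 4 groups overlapped, and the averaged difference was -0.04 (95% interval -0.31 to 0.24). Its nucleotide exchange factor Hsph1 varied more, from 986 in vehicle 3 to 4637 in letrozole 2, with an averaged difference of -0.17 (95% interval -0.73 to 0.39).

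Dnaja1 and Dnajb1 encode J-domain co-chaperones that hand clients to Hsp70. Dnaja1 stood at 1626, 1226, 1353, 1444 and 1446 in vehicle and 1648, 1665, 1446, 1789 and 1415 in anti-PD-1 tumours. It stood at 1585, 2062, 1676, 1693 and 1643 in letrozole and 1585, 1253, 1680.0, 1943 and 1589 in letrozole + anti-PD-1 tumours. Letrozole differed from vehicle by 0.29 (SE 0.111, 1.22-fold, adjusted p = 0.2465). Dnajb1 stood at 1558, 2026, 1163, 1868 and 2021 in vehicle and 2078, 1922, 1532, 1585 and 1466 in anti-PD-1 tumours. It stood at 1329, 1909, 1751, 1649 and 1516 in letrozole and 1274, 1523, 1002, 1494 and 1446 in letrozole + anti-PD-1 tumours. Each of the last 5 lay below the median of all 20, and the difference from anti-PD-1 was -0.35 (SE 0.155, adjusted p = 0.322).

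Hsf1, the factor that drives the response, stood at 1278, 1044, 901, 1016 and 1358 in vehicle and 1190.3, 1240.3, 1399.9, 1185 and 647 in anti-PD-1 tumours. It stood at 1247, 887, 1023, 1070.1 and 935 in letrozole and 895, 962, 1329.6, 999 and 1144 in letrozole + anti-PD-1 tumours, and its averaged difference was -0.08 (95% interval -0.34 to 0.17). Bag3 and Hspa4l had averaged differences of 0.05 and 0.004 and had SDs within groups of 0.125 and 0.214 on the log2 scale, that of Bag3 being the smallest of the 41.

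In the other 7 comparisons limma called no member. For letrozole against vehicle the background was 0.951% of all genes (0.402% higher and 0.548% lower), and 0 members had groups that did not overlap, against 3.68% of all genes. There 8 members had an unadjusted p under 0.05, all higher with letrozole (Fos, Fosb, Egr2, Nr4a1, Hspa1b, Hspb1, Hspb8 and Dnaja1), or 19.5% against 13.9% of all genes, and DESeq2 called 2 members (Fosb and Hspb1) and edgeR 0. For letrozole + anti-PD-1 against anti-PD-1, with a background of 1.07% (0.478% higher and 0.594% lower), 6 members had such a p, Fos higher and Junb, Atf3, Dnajb1, Hspd1 and Hspe1 lower, or 14.6% against 13.4% of all genes, and edgeR and DESeq2 called 0. In that comparison 2 members, Junb and Hspd1, had groups that did not overlap, against 2.84% of all genes.

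For letrozole + anti-PD-1 against vehicle, with a background of 1.18% (0.458% higher and 0.719% lower), 7 members had an unadjusted p under 0.05, 2 higher (Fos and Fosb) and 5 lower (Atf3, Hsp90aa1, Dnajb1, Hspd1 and Hspe1). That was 17.1% against 13.2% of all genes, and edgeR called 0 members and DESeq2 1 (Atf3). There 0 members had groups that did not overlap, against 2.91% of all genes. These 3 comparisons share groups and are not independent of each other or of the averaged one.

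The antibody moved no member past the threshold. For anti-PD-1 against vehicle 0% of all genes were called, and 0 members had an unadjusted p under 0.05, against 2.72% of all genes, and 0 had groups that did not overlap, against 0.418%. The differences furthest from 0 were Nr4a3 at -1.33, Hspb1 at 1.12 and Egr2 at 1.11, and their intervals spanned 0. For letrozole + anti-PD-1 against letrozole 0% of all genes were called and 4 members had such a p, all lower (Hspa1a, Hspa1b, Klf2 and Bag3), or 9.76% against 3.15% of all genes, and 0 had groups that did not overlap, against 0.543%. For the interaction 0% of genes were called and 4 members had such a p (Klf2, Hspa1a, Hspa1b and Hspb1), against 1.98% of all genes. For anti-PD-1 averaged over both letrozole arms 0% of genes were called and 3 members had such a p (Atf3, Hspa1b and Bag3), against 3.76%. EdgeR and DESeq2 called 0 members in these 4 comparisons.

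The sets were then compared as wholes, as the mean over members of the log2 level relative to the mean of each gene over 20 tumours. The immediate early set had means of -0.403, 0.103, 0.213, -0.408 and 0.090 in the vehicle tumours, from -0.215 to 0.079 in anti-PD-1, from -0.164 to 0.472 in letrozole and from -0.271 to 0.219 in letrozole + anti-PD-1 tumours. The 2 lowest of all 20 were vehicle 4 and 1 and the 2 highest were letrozole 5 (0.472) and letrozole 4 (0.361). The heat shock set ran from -0.232 to 0.047 in vehicle, from 0.015 to 0.098 in anti-PD-1, from -0.146 to 0.554 in letrozole and from -0.697 to 0.171 in letrozole + anti-PD-1 tumours. By this mean letrozole 2 (0.554) and letrozole 5 (0.470) stood highest and letrozole + anti-PD-1 1 (-0.697) lowest. The median over members gave another order: it was 0.279 in letrozole 2, with 14 of 15 members above their own mean, but -0.016 in letrozole 5, with 7 of 15. Vehicle 4 had the lowest mean of its group (-0.232) but the highest median (0.188). The 2 sets did not rank the tumours alike, and letrozole 2, the highest in heat shock genes, was at -0.039 in immediate early genes.

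The anti-PD-1 tumours were the most alike in the heat shock set, with an SD of 0.038 against 0.115 in vehicle, 0.299 in letrozole and 0.316 in letrozole + anti-PD-1 tumours. These SDs rest on 5 tumours each and were not tested. The median log2 difference of the heat shock set was -0.27 for letrozole + anti-PD-1 against anti-PD-1, with 12 of 15 members fitted lower, and -0.20 against letrozole, with 14 of 15 lower, beside 0.03 and -0.01 for all genes tested. For the immediate early set these medians were -0.10 and -0.05. For letrozole against vehicle the medians were 0.01 and -0.01 in the immediate early and heat shock sets. For anti-PD-1 against vehicle they were 0.02 and 0.01.

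**Figure D4:**
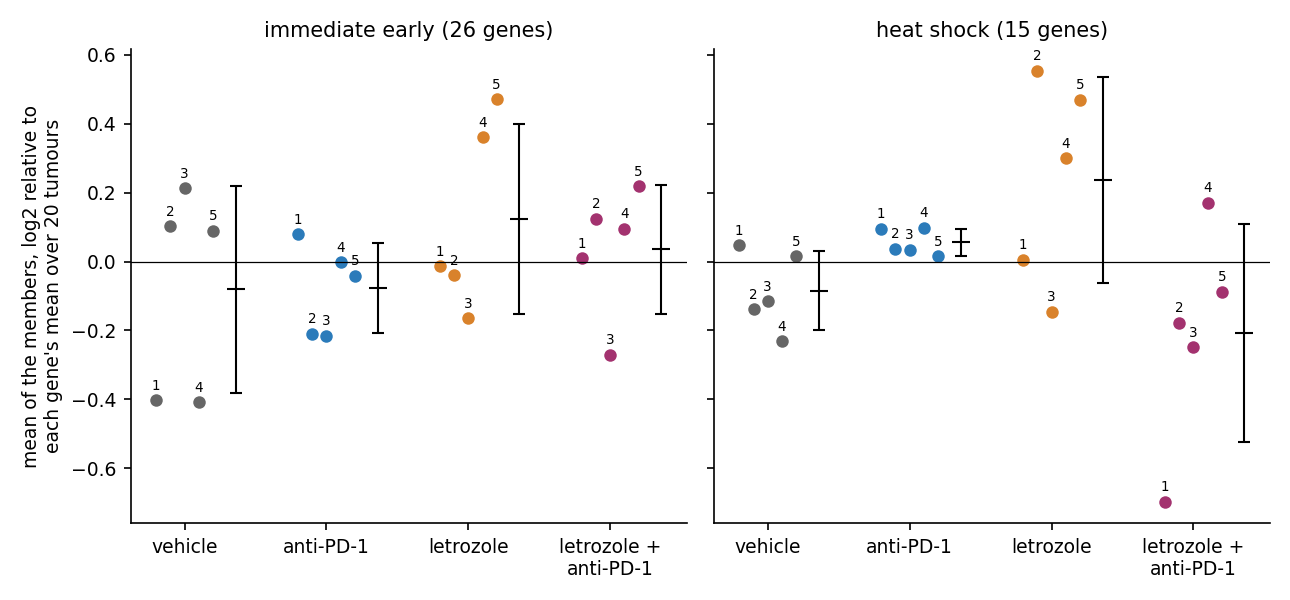
Mean level of the 26 immediate early genes (left) and the 15 heat shock genes (right) in each tumour, on a log2 scale relative to the mean of each gene over 20 tumours. Points are tumours with their replicate number, and the bar beside each group is its mean ± SD (n = 5). All groups overlap on the left, and on the right the letrozole tumours reach 0.554 and the letrozole + anti-PD-1 tumours -0.697.

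The members also varied among tumours of 1 group. The median SD within groups on the log2 scale was 0.396 in the immediate early set and 0.290 in the heat shock set, beside 0.376 over all genes tested. It was largest in low genes, at 1.745 in Egr3, 1.43 in Nr4a3, 1.21 in Fosb, 1.20 in Hspa1a and 1.17 in Hspb1. Within groups Hspa8 varied with Hsph1 and with Hsp90aa1. Over 8 fixed gene pairs, with group means removed, Hspa8 and Hsph1 had a Pearson r of 0.891 and a Spearman rho of 0.842 over 20 tumours (permutation within groups, adjusted p = 8e-05 and 0.00032, n = 20), and r was 0.857 without the 2 tumours furthest from the median of Hspa8. Its unadjusted p of 1e-05 is the smallest that 100000 permutations can give. Hsp90aa1 and Hspa8 had r of 0.625 and rho of 0.630 (permutation, adjusted p = 0.0165 and 0.0332), and r of 0.580 without 2 tumours.

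The other 6 pairs did not pass. Fos and Atf3 had r of 0.525 and rho of 0.519 (permutation, adjusted p = 0.0828 and 0.1001), though the letrozole groups had higher Fos and lower Atf3 means. Fos and Egr1 had r of -0.516 and rho of -0.429 (permutation, adjusted p = 0.107 and 0.192), and r of -0.284 without 2 tumours. Fos and Jun had r of -0.3075 and Hspa1b and Dnajb1 r of 0.340. Across the sets, Fos and Hspa1b had r of 0.120 and Egr1 and Hsp90aa1 r of 0.0690. Over all pairs the median r was 0.17 within the immediate early set (325 pairs), 0.20 within the heat shock set (105 pairs) and -0.04 across the sets (390 pairs), which is given as a description of these 20 libraries.

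**Figure D5:**
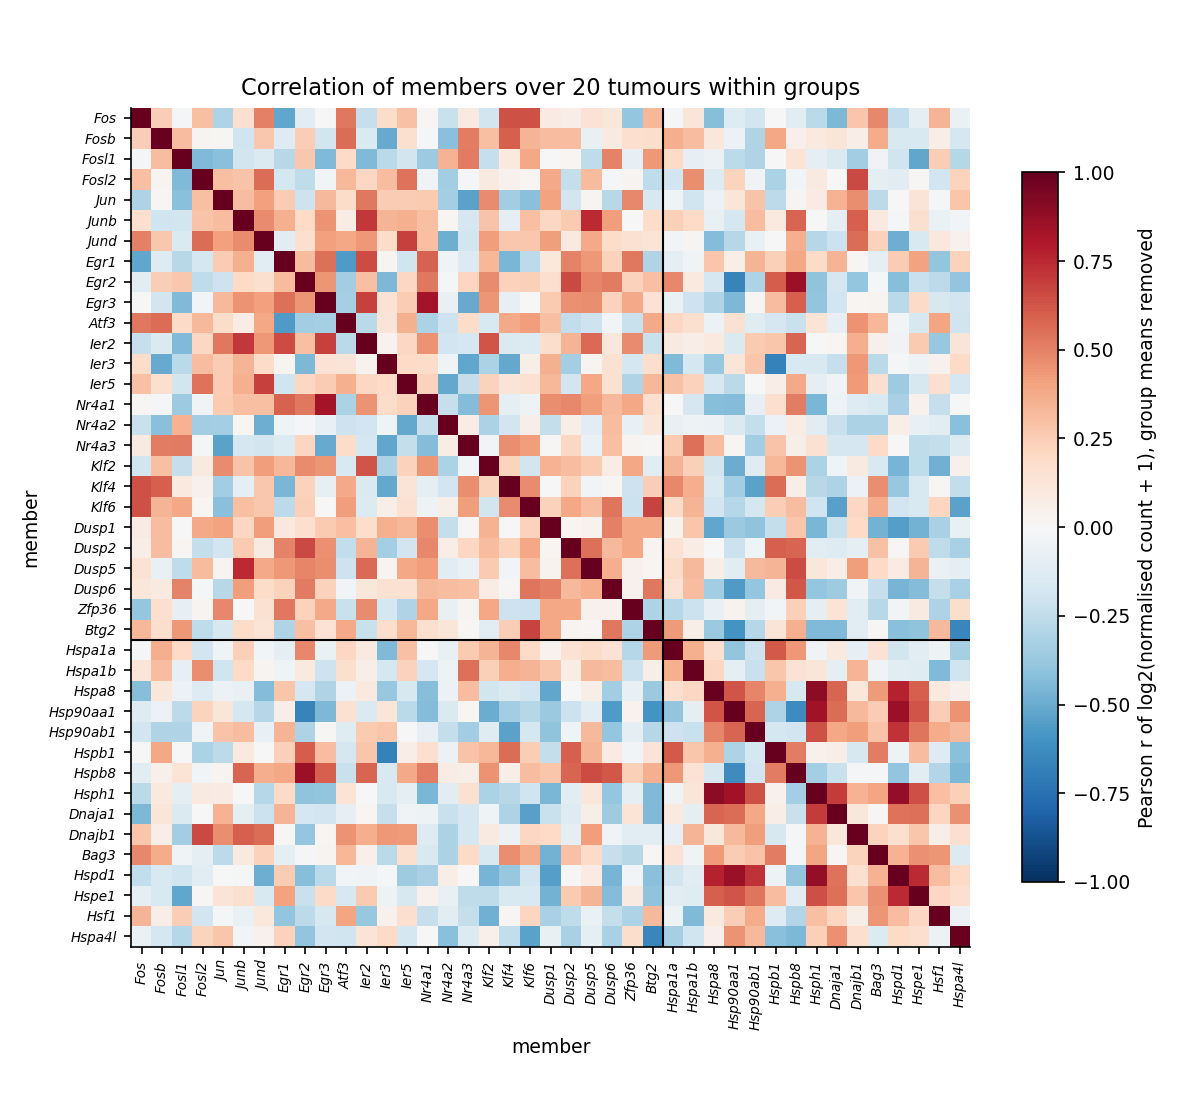
Pearson r of each pair of members over 20 tumours after group means were removed, on log2(normalised count + 1). Lines part the immediate early set (top and left) from the heat shock set. The block of Hspa8, Hsp90aa1, Hsp90ab1, Hsph1, Dnaja1, Hspd1 and Hspe1 is a patch of high r, with 0.891 for Hspa8 and Hsph1, 0.875 for Hsph1 and Hspd1 and 0.864 for Hsp90aa1 and Hspd1. An r above 0.5 occurred in 22 of the 105 heat shock pairs, in 30 of the 325 immediate early pairs and in 15 of the 390 pairs across the sets. Outside the block, r was 0.859 for Egr2 and Hspb8 and 0.835 for Egr3 and Nr4a1.

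Promoters were read for the genes that carried these patterns. RefSeq promoter windows on GRCm38.p6, from 250 bases before to 50 after a start, were at hand for 33 of the 41 members (42 windows). The 250 bases before the start of Fos, the called member, and of the near-identical pair Hspa1a and Hspa1b, which peaked in the same tumours, read as follows from 5′ to 3′, with a heat shock element of 2 units in capitals. The windows are chr12:85473640-85473889 on the plus strand, chr17:34972157-34972406 on the minus strand and chr17:34959239-34959488 on the minus strand.
Fos: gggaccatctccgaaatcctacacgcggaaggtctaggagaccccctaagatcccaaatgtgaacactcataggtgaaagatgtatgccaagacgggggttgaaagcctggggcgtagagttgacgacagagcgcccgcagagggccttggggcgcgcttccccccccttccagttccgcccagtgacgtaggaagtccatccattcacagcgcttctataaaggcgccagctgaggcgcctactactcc
Hspa1a: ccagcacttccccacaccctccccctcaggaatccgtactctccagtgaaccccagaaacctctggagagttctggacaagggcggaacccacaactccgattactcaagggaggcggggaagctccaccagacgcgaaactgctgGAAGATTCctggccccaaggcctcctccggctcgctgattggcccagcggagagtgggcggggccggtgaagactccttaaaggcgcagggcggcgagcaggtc
Hspa1b: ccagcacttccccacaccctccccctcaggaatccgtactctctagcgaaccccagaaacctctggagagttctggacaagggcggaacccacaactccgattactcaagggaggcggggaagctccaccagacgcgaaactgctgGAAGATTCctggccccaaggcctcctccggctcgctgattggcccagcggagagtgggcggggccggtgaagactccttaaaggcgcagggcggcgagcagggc
The Hspa1a and Hspa1b windows differed at 3 of the 250 positions, C44T, T47C and T249G, with the base of Hspa1a first and positions counted from 1 at the 5′ end. Both held GAAGATTC starting 104 bases before the start. The Fos window held no exact match to the motifs searched. Bases more than 250 before a start, and sites that differ from the motif letters, were not searched. A window without a match therefore does not show that the gene lacks such a site.

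A heat shock element of 2 units (GAANNTTC or TTCNNGAA, searched on both strands) occurred in 9 of the 11 heat shock genes with a window, or 10 of their 16 windows (62.5%), against 15.1% of 32851 windows of all genes. In the immediate early set 3 of 26 windows (11.5%) held it, those of Egr2, Fosl2 and Jun. Elements of 3 units in alternating orientation, each of which contains an element of 2 units, lay in windows of Hspd1, Hspe1 and Hsph1 and in 0.597% of all windows. Hspd1 and Hspe1 lie head to head and share a run of 3 overlapping matches. One of them, at chr1:55088049-55088076, is shown on the strand of each gene, because the letrozole differences of the pair had the same sign.
Hspd1 (minus strand): ttccggaaggTTCTAGAAcggaccgtgg
Hspe1 (plus strand): ccacggtccgTTCTAGAAccttccggaa
The CArG box, the site of serum response factor, is CC, 6 bases that are A or T, and GG, and lay in windows of Dusp5, Egr2 and Zfp36 (6 of 26 windows) and in 1.63% of all windows. It is shown in capitals for these 3 genes, at chr19:53529054-53529081 (plus strand), chr10:67537788-67537815 (plus strand) and chr7:28379268-28379295 (minus strand).
Dusp5: gggaaatacCCATATTTGGccttatatg
Egr2: ttcctcagtCCATATATGGgcagcgacg
Zfp36: caggccgccCCATAAAAGGagaaagctc
The cyclic AMP response element (TGACGTCA) lay in windows of Btg2 and Dusp1 and in 1.79% of all windows. The AP-1 motif (TGANTCA) lay in Bag3 alone among the members and in 7.81% of all windows. Dusp5, Egr2 and Zfp36 were not called in any comparison by limma with all 20 tumours, and these matches describe letters only.

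Genes of the surrounding pathways, from lists chosen beside the members, were counted in the same fit. For letrozole averaged over both antibody arms, against 7.00% of all genes, 5 of 36 tested other serum response and immediate early genes changed. Zfp36l1, an mRNA decay factor, rose from 2462 ± 410.4 in vehicle to 4392 ± 1094 in letrozole tumours (averaged log2 difference 0.74, adjusted p = 9.77e-04), and Plk2 rose (0.53, adjusted p = 0.01825). Myc fell from 3943 ± 808 to 2522 ± 659 (-0.75, adjusted p = 0.003455), and Gadd45g (-0.75) and Nfil3 (-0.88) fell (adjusted p = 0.00304 and 0.00704). None of 26 genes of the ERK pathway was called (5 at an unadjusted p under 0.05), and of 17 of the p38 and JNK pathway Map3k5 rose (0.32, adjusted p = 0.0188).

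Of all genes, 3.28% were called higher and 3.72% lower for letrozole averaged over both antibody arms. Among chaperones outside the list, the cytosolic chaperonin TRiC, which folds actin and tubulin, had 3 of 8 subunits that fell with letrozole. They were Tcp1 (-0.32, limma, adjusted p = 0.0224), Cct5 (-0.31, adjusted p = 0.0323) and Cct2 (-0.26, adjusted p = 0.0452). All 8 were fitted lower, with a median of -0.23, beside 0.03 for all genes tested. Of 11 mitochondrial chaperones and proteases, all fitted lower, Hspa9 and Lonp1 fell. Hspa9, the mitochondrial Hsp70, fell from 12128 ± 1957 in vehicle and 10989 ± 1141 in anti-PD-1 to 9021 ± 885.5 in letrozole and 7803 ± 1314 in letrozole + anti-PD-1 tumours (-0.46, adjusted p = 0.00306). It also passed for letrozole + anti-PD-1 against vehicle (-0.64, limma, adjusted p = 0.01025) and against anti-PD-1 (-0.50, adjusted p = 0.0497). The shares of all genes called there were 1.18% and 1.07%. The call against anti-PD-1 was lost in 24 of 36 alternative fits. Of 37 other cytosolic chaperones and co-chaperones Hspa2 (0.75), Hsf2 (0.42) and Cryab (0.67) rose, and Dnajb4 (-0.54), Fkbp5 (-0.52) and Cdc37 (-0.25) fell. None of 15 chaperones of the endoplasmic reticulum was called, with 4 at an unadjusted p under 0.05. Without the 4 tumours of high skeletal muscle markers Hspa9 (-0.47, limma, adjusted p = 0.0429), Dnajb4, Hspa2, Zfp36l1 and Gadd45g kept an adjusted p under 0.05. Tcp1, Cct5, Cct2, Lonp1, Fkbp5, Hsf2, Cdc37, Cryab, Myc, Nfil3, Plk2 and Map3k5 did not. Most calls over all genes were lost in that fit too, and all 4 tumours left out had letrozole. A lost call therefore cannot be told apart from the loss of tumours, and the part of muscle was not tested. In the averaged comparison Cct2, Cct5, Cryab and Lonp1 lost the call in 20, 14, 24 and 9 of 35 alternative fits.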

How the data were processed

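Bulk RNA from 20 tumours was sequenced by the submitters. Per the submitters' processing notes, STAR 2.7.10a, DESeq2 and the build GRCm39 (mm39) were used, while the counting tool and its strand setting are not named. As deposited, the table holds a signal of normalised counts, 127442 transcripts by 20 libraries, without gene names. The planned tests assumed genes, so each gene was represented by its transcript of highest total. Of the transcripts 93.3% were named from GENCODE vM21 (GRCm38), and unnamed ones held 1.79% to 2.76% of reads. All values were whole multiples of 1 read (100% within 0.001), so reads and size factors (0.472 to 1.46) were recovered.

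Genes at 10 or more in 5 libraries were tested with limma 3.58.1 (R 4.3.3) on log2(value + 1), in a single two-sided fit of the 4 groups (16 residual degrees of freedom), with Benjamini-Hochberg adjustment over 19876 genes and a threshold of 0.05. A difference on this scale understates the change of low genes. EdgeR 4.0.16 and DESeq2 1.42.0 on the recovered reads were alternatives. For letrozole averaged over both antibody arms edgeR called 1358 genes and limma 1391. Correlations used 100000 permutations within groups. The fits were tested on simulated data.

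Values per tumour were given for members past the threshold, for the 2 members of each set with the smallest p in each pairwise comparison and in the averaged letrozole comparison, and for a panel of 12 genes. Other values named were chosen after they were seen. The members and all lists were chosen with earlier results of these data known. The labels do not say that each library came from a separate animal, so p-values measure the spread between these samples.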

Additional observations from a re-analysis of the deposited data

Results flagged for a closer look

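In 13 of 172 sets of 5 tumours, 1 tumour stood far from the other 4 of its group, with a gap over 0.71 of the whole range on the log2(value + 1) scale. Chance gives about 1 in 20 such sets. The list depends on the scale: on normalised counts the same gap was passed 17 times among the members, 7 of them shared with the log2 scale. Those on counts alone included Egr3 in anti-PD-1 1 (1452.9) and Egr2 in vehicle 3 (341.7). The values below are printed as normalised counts, and no cause was tested.

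Among the AP-1 genes, Fosl2 was at 1791.3 in letrozole + anti-PD-1 3 (others 2694.7 to 3078.9), and Jund in the same tumour at 8718.5 (13058.5 to 14649.9). Jun was at 12240.3 in letrozole 3 (8057.0 to 9018.4). In anti-PD-1 1, the shallowest library, Nr4a3 was at 0 (18.61 to 37.58) and Dusp5 at 802.7 (510.6 to 564.7). Dusp2 was at 0 in anti-PD-1 2 (11.04 to 18.79), Dusp1 at 191.9 in anti-PD-1 3 (393.8 to 507), and Nr4a2 at 14.55 in letrozole + anti-PD-1 4 (35.38 to 47.18). Ier5 was at 2015.1 in vehicle 4 (2500.2 to 2715.6) and Zfp36 at 414.1 in letrozole 2 (494.3 to 508). Among the heat shock genes, Dnaja1 was at 2061.5 in letrozole 2 (1585.2 to 1693.0), Hsp90aa1 at 13123.2 in anti-PD-1 4 (10436.4 to 10977.0), and Hsf1 at 647.4 in anti-PD-1 5 (1185.0 to 1399.9).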

How the results depend on the processing

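For letrozole averaged over both arms, 1 member was called, and Fos kept the call in 18 of 35 alternatives (log2 difference 0.29 to 0.48, adjusted p 0.0125 to 0.393). The count was 0 with no filter and without the 4 tumours of high skeletal muscle markers, 4 with DESeq2 (Fos, Fosb, Atf3 and Hspd1), 5 with array weights (Fos, Nr4a1, Atf3, Hsp90aa1 and Hspd1), 6 without both libraries that stand apart, and 0 to 7 when 1 tumour was left out. It was 0 without vehicle 1 or 4, anti-PD-1 2, 4 or 5, letrozole 3, 4 or 5, or letrozole + anti-PD-1 1, 2 or 5. It was 7 without vehicle 3, 3 without letrozole 2 (Fos, Fosb and Hspd1), 2 without anti-PD-1 1 (Fos and Nr4a1) and 2 without letrozole + anti-PD-1 3 (Fos and Hspd1). Without letrozole 1 and with edgeR the call was Fosb, and with libraries centred on their median it was Junb. Against vehicle 0 members were called for letrozole alone and 0 for letrozole + anti-PD-1. Those counts were 1 (Nr4a1) and 1 (Atf3) with array weights, 4 and 5 without both libraries, 2 and 1 with DESeq2, and 0 to 1 and 0 to 4 with 1 tumour left out. The highest came without vehicle 3, and leaving out letrozole + anti-PD-1 5 gave 1 (Atf3).

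Replicate numbers did not pair the tumours: same-numbered tumours of 2 groups had correlations of -0.344 to 0.197, and 1 of 20 tumours correlated best with its own number. With the replicate block 1394 genes and 1 member (Fosb, 1.51, adjusted p = 0.0230) were called for letrozole averaged over both arms, and Fos had an adjusted p of 0.0515.

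Averaged differences near 0 changed sign. Egr1 was at 0.01425 without both libraries. Hspa1b was at -0.002226 with quantile normalisation, -0.06196 without both libraries and -0.01094 without the muscle-marker tumours. Hspa8 was at 0.07496 with quantile normalisation. Leaving out 1 tumour gave -0.03481 to 0.5495 for Hspa1a, -0.07577 to 0.1643 for Hspa1b and -0.1046 to 0.02825 for Hspa8. Without removing group means, r was -0.08247 for Fos and Atf3 and -0.006483 for Fos and Hspa1b. Without both libraries Hsp90aa1 and Hspa8 had r of 0.631 (permutation, adjusted p = 0.0577). The medians of both sets moved by less than the SD of the set level among tumours of a group, a wide bound. Medians near 0 changed sign within it. For letrozole against vehicle the immediate early median ran from -0.062 to 0.084. For anti-PD-1 against vehicle the heat shock median ran from -0.116 to 0.108. For letrozole + anti-PD-1 the heat shock median stayed below 0 against anti-PD-1 (-0.315 to -0.139) and against letrozole (-0.252 to -0.089).

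Counts over all genes moved too. For letrozole against vehicle, 189 became 730 with array weights, 1139 without both libraries, 11 without the muscle-marker tumours and 624 with DESeq2, and its split of 80 higher and 109 lower became 42 and 99 with centring. For the averaged comparison 1391 became 2579, 2457 and 284 in the first 3 of these. For letrozole + anti-PD-1 against anti-PD-1, 213 became 110 with no filter, 60 with only those groups, 88 without the muscle-marker tumours and 533 with DESeq2. Against vehicle, 234 became 561 with array weights, 120 with only those groups, 952 without both libraries, 142 without the muscle-marker tumours and 679 with DESeq2. Where limma called 0 genes DESeq2 called 1 to 9, and for letrozole + anti-PD-1 against letrozole the block and leaving out anti-PD-1 1 each gave 1. With 1 tumour left out the counts ran from 85 (vehicle 5) to 805 (vehicle 3) for letrozole against vehicle, from 72 (anti-PD-1 4) to 263 for letrozole + anti-PD-1 against anti-PD-1, from 122 (vehicle 1) to 697 (vehicle 3) against vehicle, and from 934 to 2329 (vehicle 3) for the averaged comparison. The causes were not tested. Leaving out the muscle-marker tumours was chosen after the data were seen. Depth limits low members: Hspa1a, Dusp2 and Nr4a3 were each at 0 in 1 tumour.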
